A study of Mus musculus with 4 samples.

Results

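The genes described here carry the insulin signal from the cell surface to glucose uptake: the insulin receptor Insr, its substrates Irs1, Irs2 and Irs3, the PI3-kinase regulatory subunit Pik3r1, the kinases Akt1 and Akt2, the Rab GTPase-activating protein Tbc1d4 and the glucose transporters Slc2a4 and Slc2a1. They were taken by gene symbol as 10 of 19505 genes named on the array, with earlier results of these data known. Each has 1 probe set. RNA came from epididymal fat of male mice and was hybridised to Affymetrix Clariom S Mouse arrays, which use a single colour. The 4 groups hold 1 array each. Veh-Sham received DMSO and sham surgery, Veh-SA received DMSO and synergist ablation, GW-Sham received GW4869 and sham surgery, and GW-SA received GW4869 and synergist ablation. Synergist ablation removes the muscles that work beside another and so overloads the one left, and GW4869 inhibits the shedding of extracellular vesicles. The sources used here do not give strain, age, dose, time after surgery, or whether mice were pooled on an array. By the series title, the study concerns vesicles from overloaded muscle and lipolysis in fat, so overload against sham is read under vehicle and again under GW4869. Vesicle release itself is not measured by these arrays.

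Insulin binding switches on the tyrosine kinase of its receptor, which phosphorylates the IRS adaptors. These recruit PI3-kinase through its regulatory subunit, the lipid product of PI3-kinase brings Akt to the membrane, and Akt phosphorylates Tbc1d4, which then stops holding vesicles that carry the transporter Slc2a4 inside the cell. In fat this route drives glucose uptake after a meal and restrains lipolysis. Most of its control lies in phosphorylation and vesicle movement, which an RNA array does not measure.

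Values are log2 expression as deposited, so a difference of 1 is a doubling on that scale. They reach 19.93, and no source used here gives the step that set this top, so folds hold for the deposited scale alone. Fabp4, an adipocyte marker, read 19.74 to 19.92, close to that top. Since each group has a single array, replicate error is unknown, no test was possible, and precision is limited by how few arrays there are. Each difference describes 2 arrays, and no order of neighbouring levels can be set against a spread. A gene was counted as apart at 1.5-fold, or 0.58 log2 units, and shares over all genes refer to the 11703 genes whose mean lay above a floor of 4.67. All 10 genes did so, and each lay above the floor on all 4 arrays. That floor is lower than the median of the negative control rows (4.77 to 5.20), so passing it does not set a gene apart from background. In whole tissue, fewer cells of a type and less RNA per cell cannot be told apart.

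The tissue label was checked against 16 markers of mature adipocytes, of which 15 were measured, all of them at 12.68 or above on every array. Their median difference for overload was 0.35 under vehicle and -0.37 under GW4869. Other tissue was present as well. The 15 sperm and testis markers had a median of 14.37 in Veh-Sham and 3.17 to 4.42 on the other arrays. The 12 measured markers of epididymal epithelium had a median of 14.19 in GW-SA and 3.39 to 3.66 elsewhere. In Veh-Sham 4 of the 12 lay above the floor, against 1 in Veh-SA, 0 in GW-Sham and 12 in GW-SA. Adam7 and Lcn5 read 14.64 and 14.22 in Veh-Sham, and 2.92 to 4.47 in Veh-SA and GW-Sham. The 6 genes of distal epididymis and vas deferens had medians of 11.16 and 11.42 in Veh-Sham and GW-Sham against 3.5 and 4.26 in Veh-SA and GW-SA, and the 8 smooth muscle markers had 13.32 and 13.02 against 7.57 and 9.58. Over the 7 measured macrophage markers the median was 8.55 in Veh-Sham, 9.29 in Veh-SA, 10.81 in GW-Sham and 11.65 in GW-SA. The sources of RNA thus differ between arrays in step with the groups, and their part in any difference given below cannot be told apart from surgery or drug.

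**Figure D1:**
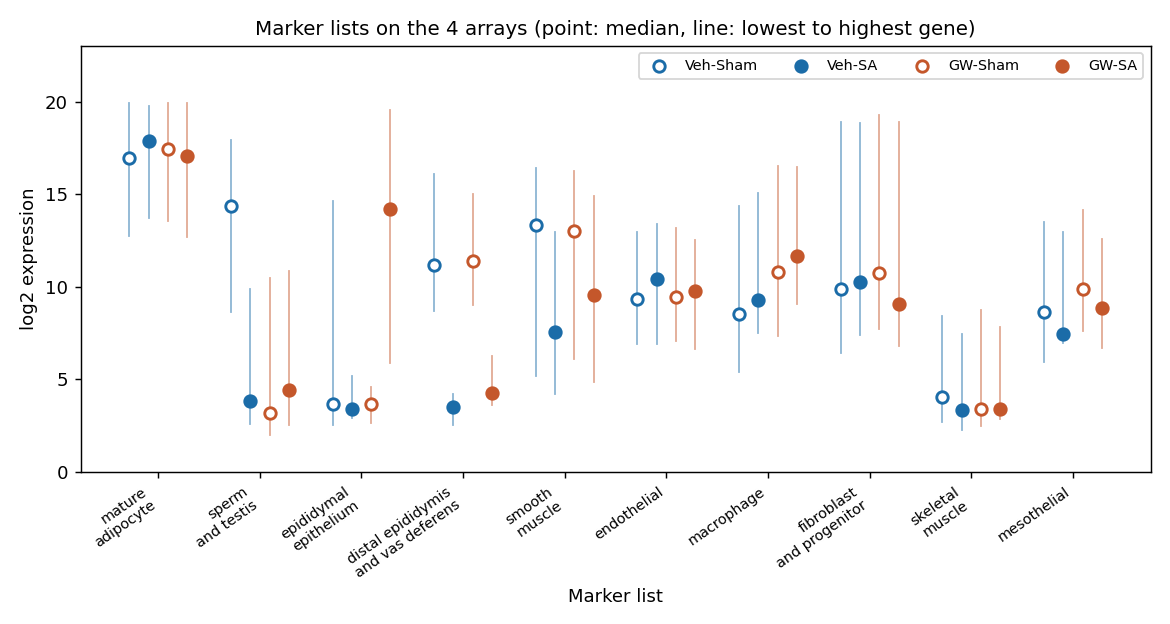
Marker lists on each array: the y axis is log2 expression, points are list medians, lines run from the lowest to the highest gene, open points are sham and filled points overload, with vehicle in blue and GW4869 in orange. Sperm and testis markers stand high in Veh-Sham (median 14.37), epididymal markers in GW-SA (14.19), and the adipocyte medians lie between 16.94 and 17.85.

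Of the 10 genes, 5 shared a shape across the 4 arrays. Irs1, Irs3, Pik3r1, Tbc1d4 and Slc2a4 were low in Veh-Sham and GW-SA and high in Veh-SA and GW-Sham. The same low pair was found for 27.6% of all genes above the floor and for 24 of the 58 other pathway genes described further on. Most adipocyte markers had it too: Plin1, Plin4, Cidec, Lipe, Lpl, Cd36, Cebpa, Acvr1c and Retn. Adipoq, Pnpla2, Fabp4, Pparg, Car3 and Aqp7 did not. Irs1, Irs3, Pik3r1, Tbc1d4 and Slc2a4 were each at least 1.5-fold higher in overload under vehicle and at least 1.5-fold lower under GW4869. That combination was found for 5.53% of genes above the floor. The arrays on which they read low are the pair with high sperm or epididymal markers. GW-Sham, where they read high, also held other tissue, with medians of 11.42 for distal tract and 13.02 for smooth muscle markers. The part of other tissue in the shape was not tested. With the differences of adipocyte markers set to a median of 0, Irs1, Irs3 and Pik3r1 kept both sides of that combination, against 1.1% of genes. Slc2a1 had another shape, lowest in Veh-Sham and highest in GW-SA.

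**Figure D2:**
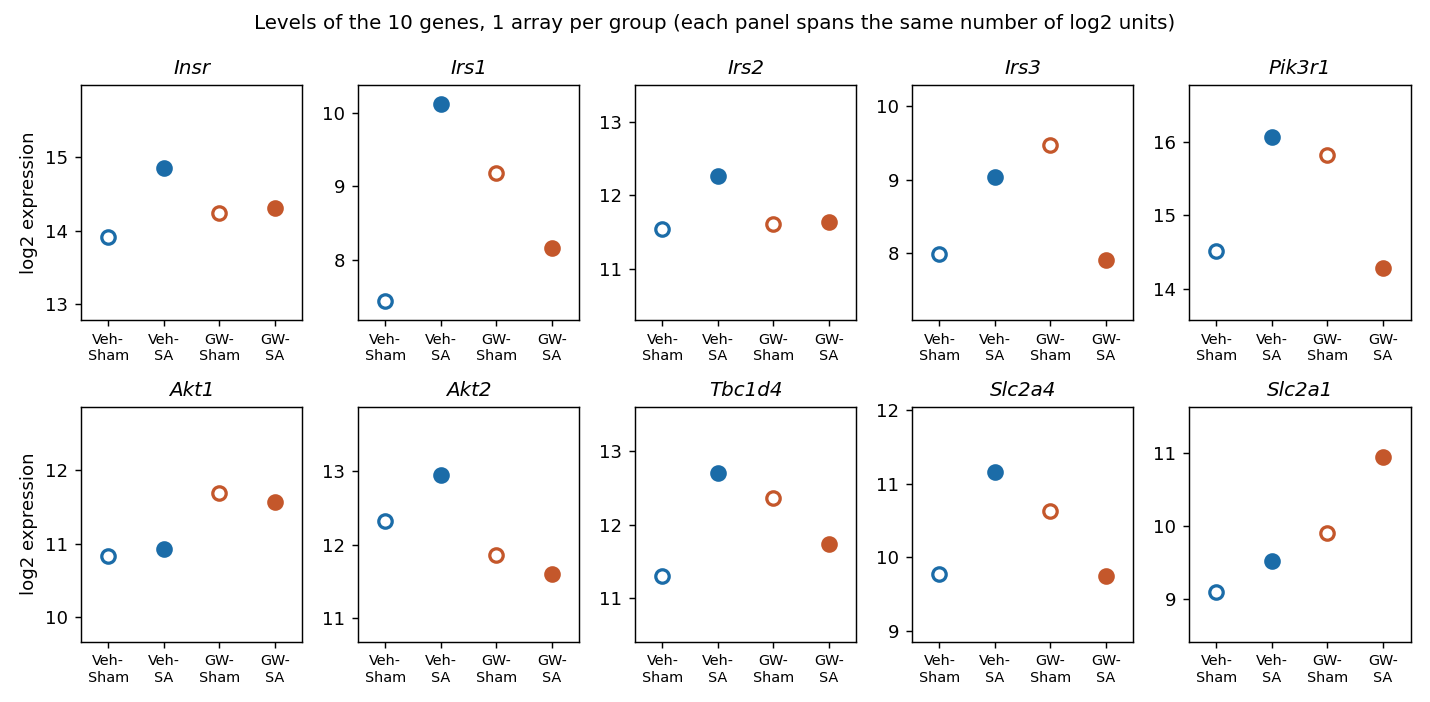
Log2 expression of the 10 genes on each array, 1 panel per gene with the same height of scale; open points are sham and filled points overload, vehicle in blue and GW4869 in orange. Irs1, Irs3, Pik3r1, Tbc1d4 and Slc2a4 are higher in Veh-SA and GW-Sham than in Veh-Sham and GW-SA, while Slc2a1 is lowest in Veh-Sham (9.10) and highest in GW-SA (10.94).

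Insr, the receptor, read 13.92 in Veh-Sham, 14.85 in Veh-SA, 14.24 in GW-Sham and 14.31 in GW-SA. Veh-SA was the highest array, 0.54 log2 units above GW-SA, and the others lay within 0.39 of each other. Overload under vehicle was 1.91-fold higher (0.94 log2 units), and the overload difference under GW4869 was 0.07. The related receptor Igf1r, which binds insulin-like growth factors, differed by 0.23 under vehicle and 0.36 under GW4869. Igf1, a hormone that adipose tissue also makes, had the shape of the 5 genes above, at 16.80 in Veh-Sham, 17.80 in Veh-SA, 17.74 in GW-Sham and 16.88 in GW-SA.

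Irs1, the adaptor most tied to insulin action in fat, had the widest range of the 10 genes, with 7.44 in Veh-Sham, 10.12 in Veh-SA, 9.18 in GW-Sham and 8.16 in GW-SA. Overload was 6.40-fold higher than sham under vehicle (2.68) and 2.02-fold lower under GW4869 (-1.02). Its vehicle difference ranked at percentile 99.9 of all genes above the floor, and its GW4869 difference at percentile 5.10. Those ranks are not moved by any shift common to an array. Irs1 lay under the 95th percentile of the negative control rows (9.01 to 9.27) on 3 arrays, all but Veh-SA, although above that of antigenomic background probes (6.34 to 6.40) on all 4. Its low readings are therefore not separated from the upper range of the negative controls.

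Irs2, an adaptor that is itself under hormonal control, stayed closer together, with 11.54 in Veh-Sham, 12.25 in Veh-SA, 11.61 in GW-Sham and 11.64 in GW-SA. As for Insr, Veh-SA was the high array and the other 3 lay close together. Irs3, an adipocyte-rich adaptor of rodents, read 7.98 in Veh-Sham, 9.03 in Veh-SA, 9.47 in GW-Sham and 7.91 in GW-SA. Of the 5 genes with the shared shape, Irs3 alone was highest in GW-Sham. The vehicle and GW4869 overload differences of Irs3 were 1.05 and -1.56. It too lay under the 95th percentile of negative controls on 3 arrays, all but GW-Sham. The difference between Irs1 and Irs2 on the same arrays, which no common shift can move, was 1.97 log2 units for overload under vehicle and -1.04 under GW4869.

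The 250 bases before the RefSeq start of the 3 adaptor genes, and of Pik3r1 and Tbc1d4, are shown. They were chosen because 4 of these 5 share the shape above in the deposited values while Irs2 does not. Irs2 missed it narrowly, with GW-SA 0.03 log2 units above GW-Sham. Pik3r1 has 2 windows, of which that of the upstream start is shown. Sequences and coordinates are those of RefSeq on GRCm38.p6, read 5′ to 3′ along the gene. Windows were matched for 8 of the 10 genes, 13 windows in all, and not for Insr and Slc2a4. Capitals mark matches to 2 of the motifs searched on both strands, CACGTG (the palindromic E-box) and GGGCGG (the GC box, CCGCCC on the other strand).
Irs1 (chr1:82291440-82291689, minus strand): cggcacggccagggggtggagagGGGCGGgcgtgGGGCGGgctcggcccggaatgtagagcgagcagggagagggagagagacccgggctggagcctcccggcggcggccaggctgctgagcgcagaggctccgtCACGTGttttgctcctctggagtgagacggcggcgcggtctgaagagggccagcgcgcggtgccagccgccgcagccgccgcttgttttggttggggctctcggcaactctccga
Irs2 (chr8:11008930-11009179, minus strand): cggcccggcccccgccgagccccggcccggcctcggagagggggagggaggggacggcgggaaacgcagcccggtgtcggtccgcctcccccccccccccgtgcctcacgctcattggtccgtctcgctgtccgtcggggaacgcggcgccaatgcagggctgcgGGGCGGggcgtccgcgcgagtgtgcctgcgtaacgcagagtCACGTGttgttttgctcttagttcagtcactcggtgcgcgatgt
Irs3 (chr5:137645715-137645964, minus strand): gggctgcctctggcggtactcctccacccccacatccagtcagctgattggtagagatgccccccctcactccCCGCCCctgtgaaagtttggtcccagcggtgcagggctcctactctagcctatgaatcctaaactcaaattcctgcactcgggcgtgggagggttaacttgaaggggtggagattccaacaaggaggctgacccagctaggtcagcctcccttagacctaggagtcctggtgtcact
Pik3r1 (chr13:101768218-101768467, minus strand): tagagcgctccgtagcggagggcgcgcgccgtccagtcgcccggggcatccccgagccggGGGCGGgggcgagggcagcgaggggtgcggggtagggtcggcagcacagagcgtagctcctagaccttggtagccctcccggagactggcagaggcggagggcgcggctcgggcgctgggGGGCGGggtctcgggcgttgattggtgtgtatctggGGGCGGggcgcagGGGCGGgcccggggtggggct
Tbc1d4 (chr14:101609192-101609441, minus strand): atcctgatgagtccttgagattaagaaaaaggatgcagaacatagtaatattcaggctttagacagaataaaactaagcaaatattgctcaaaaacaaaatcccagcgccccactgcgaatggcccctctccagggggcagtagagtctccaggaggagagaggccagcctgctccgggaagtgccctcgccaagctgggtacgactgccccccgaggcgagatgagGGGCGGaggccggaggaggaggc

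CACGTG stood in the Irs1 window, starting 115 bases before the start site, and in the Irs2 window, starting 44 bases before it, and 6.02% of 32851 windows of the same length held it. GGGCGG or its complement was in all 5 windows shown, once each in Irs2, Irs3 and Tbc1d4, 2 times in Irs1 and 4 times in Pik3r1, and in 32.7% of all windows. The Irs1, Irs2 and Pik3r1 windows were 72.4%, 72.8% and 76.4% G and C, against a median of 52.4% over all windows. TATAAA (12.4% of windows), TGTTTAC (the forkhead core, 3.17%) and DR1 (the direct repeat that PPAR gamma and its partner bind, 0.0335%) had 0 matches in these 5 windows. Among the windows not shown, GGGCGG or its complement was absent from window 2 of Pik3r1, window 1 of Akt1 and windows 2, 3 and 4 of Akt2. It was present in window 2 of Akt1, window 1 of Akt2 and the Slc2a1 window. Window 2 of Pik3r1 held 1 TATAAA, and window 1 of Akt1 held 1 TGTTTAC. Irs1 and Irs2 share both motifs and differ in their values, and any link between motif and shape was not tested.

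Pik3r1, which encodes p85-alpha, the subunit that docks PI3-kinase on the IRS proteins, read 14.52 in Veh-Sham, 16.07 in Veh-SA, 15.82 in GW-Sham and 14.29 in GW-SA. The values form a high pair and a low pair, more than 1.3 log2 units apart. Overload was 2.92-fold higher under vehicle and 2.90-fold lower under GW4869, which are differences of 1.55 and -1.54. The related regulatory subunit Pik3r2 had the same low pair of arrays with differences of 0.12 and -0.17, and Pik3r3 differed by -0.33 and 0.03. The catalytic subunits Pik3ca and Pik3cb had vehicle overload differences of 1.00 and 0.85, against 0.06 and -0.28 with GW4869. Pik3cd, the leukocyte-rich catalytic subunit, was 0.95 higher in overload under GW4869, a comparison in which 4 of the 7 macrophage markers read higher and 3 lower.

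Akt2, the isoform tied to glucose uptake, read 12.32 in Veh-Sham, 12.95 in Veh-SA, 11.86 in GW-Sham and 11.60 in GW-SA. Both GW4869 arrays lay below both vehicle arrays. Akt1, the isoform tied to growth, read 10.84 in Veh-Sham, 10.92 in Veh-SA, 11.70 in GW-Sham and 11.57 in GW-SA, so that both GW4869 arrays lay above both vehicle arrays. GW4869 against vehicle changed Akt2 minus Akt1 by -1.32 log2 units in sham and by -2.0 in overload. Common shifts of an array cancel in that difference, although unequal scaling along the range of levels does not. Pdpk1, the kinase that activates Akt, read 12.31 in Veh-Sham and 10.68 to 11.01 on the other 3 arrays. Mlst8, a subunit of the mTOR complexes, and Prkci, an atypical protein kinase C, were 1.16 and 0.95 higher in overload under vehicle, with 0.11 and 0.23 under GW4869.

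Tbc1d4, also called AS160, read 11.30 in Veh-Sham, 12.71 in Veh-SA, 12.36 in GW-Sham and 11.74 in GW-SA. Veh-Sham was the lowest array and Veh-SA the highest. Overload was 2.65-fold higher under vehicle (1.41) and 1.54-fold lower under GW4869 (-0.62), the latter only just past the threshold. Its paralog Tbc1d1, better known in skeletal muscle, was arranged the other way, with 9.59 in Veh-Sham, 7.64 in Veh-SA, 8.81 in GW-Sham and 9.19 in GW-SA. Between Tbc1d4 and Tbc1d1 the overload differences were thus 3.35 log2 units apart under vehicle and -1.0 under GW4869. Tbc1d1 lay under the 95th percentile of negative controls on all arrays but Veh-Sham.

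Slc2a4, the insulin-responsive transporter GLUT4, read 9.77 in Veh-Sham, 11.15 in Veh-SA, 10.63 in GW-Sham and 9.74 in GW-SA. The low arrays lay 0.03 log2 units apart. Overload was 2.61-fold higher under vehicle (1.38) and 1.85-fold lower under GW4869 (-0.89), at percentiles 96.1 and 7.04 of genes above the floor. GW4869 against vehicle was 0.87 in sham and -1.41 in overload. Skeletal muscle, which also makes GLUT4, had marker medians of 3.32 to 4.05 over 9 genes, with 4, 3, 4 and 2 of them above the floor in Veh-Sham, Veh-SA, GW-Sham and GW-SA. Acta1, the actin of that muscle, read 8.40, 7.44, 8.76 and 7.81 in the same order of arrays. The part of muscle RNA in the Slc2a4 values was not tested.

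Slc2a1, the basal transporter GLUT1 of many cell types, read 9.10 in Veh-Sham, 9.53 in Veh-SA, 9.90 in GW-Sham and 10.94 in GW-SA. GW-SA stood 1.04 above the next array. Slc2a1 was the single gene of the 10 at least 1.5-fold higher in overload under GW4869 (2.05-fold), and it was 2.67-fold higher in GW-SA than in Veh-SA. The median of the macrophage markers ordered the 4 arrays in the same way, as did 3 of the 7 single markers. Epididymal markers were high in GW-SA. The part of macrophage or epididymal RNA in the Slc2a1 values was not tested. Slc2a4 minus Slc2a1 changed by 0.96 log2 units for overload under vehicle, by -1.93 for overload under GW4869, by 0.07 for GW4869 in sham and by -2.83 for GW4869 in overload.

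Counted over the 10 genes, overload under vehicle had 8 at least 1.5-fold higher and 0 lower, with Akt1 and Slc2a1 between. Over all genes above the floor 30.2% were higher and 16.9% lower, and the median difference was 0.99 for the 10 genes against 0.26 for all genes. Irs1, Pik3r1, Tbc1d4 and Slc2a4 had the largest differences and lay at percentile 96.1 or above.

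Overload under GW4869 had 1 gene higher, Slc2a1, and 5 lower, Irs1, Irs3, Pik3r1, Tbc1d4 and Slc2a4. The shares over all genes were 13.4% higher and 15.3% lower, and the medians were -0.44 for the 10 genes and -0.04 for all. Insr, Irs2, Akt1 and Akt2 lay between, from -0.26 to 0.07. Overload under vehicle and under GW4869 use different arrays, and whether the drug altered the overload difference was not tested.

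**Figure D3:**
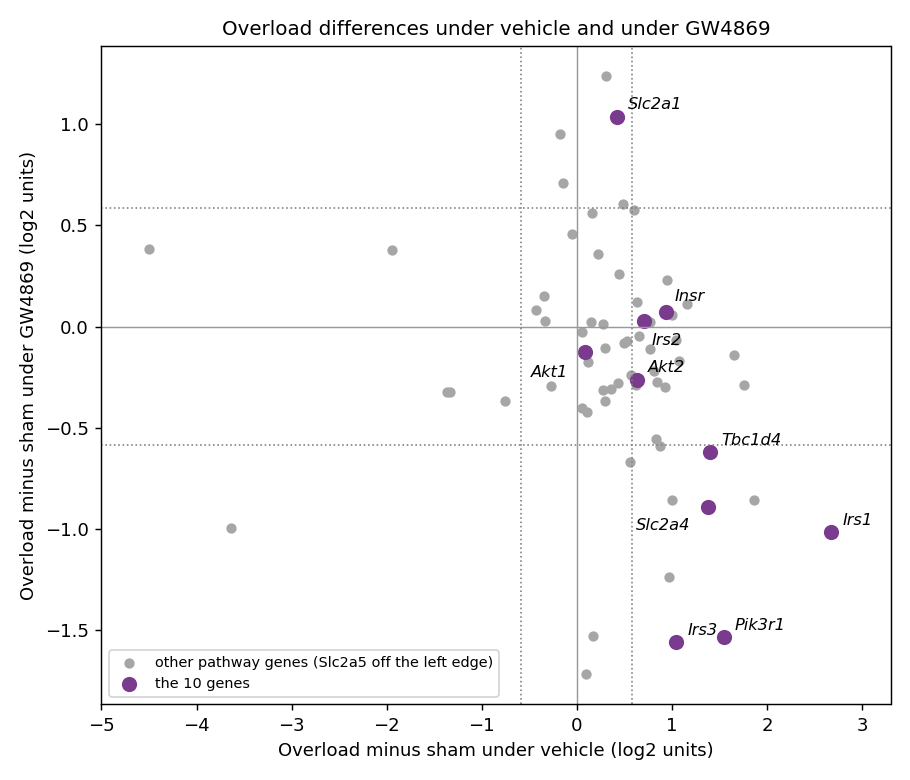
Overload minus sham under vehicle (x axis) and under GW4869 (y axis), both in log2 units, for the 10 genes (purple) and the other pathway genes above the floor (grey; Slc2a5 lies off the left edge at -8.18). Dotted lines mark 1.5-fold; Irs1, Irs3, Pik3r1, Tbc1d4 and Slc2a4 lie in the lower right field and Slc2a1 alone of the 10 lies above the upper line.

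GW4869 against vehicle in sham had 7 of the 10 genes higher and 0 lower, against 28.9% and 14.4% of all genes. Irs1 (1.74), Irs3 (1.48), Pik3r1 (1.30) and Tbc1d4 (1.06) led, and Akt2 had -0.46. This comparison and overload under vehicle both subtract Veh-Sham, so their shared direction is not a separate observation. GW4869 against vehicle in overload had 2 higher, Slc2a1 (1.42) and Akt1 (0.65), and 7 lower, against 18.4% and 18.8% of all genes. Irs1 (-1.96), Pik3r1 (-1.78), Slc2a4 (-1.41) and Akt2 (-1.35) were the lowest, and Insr (-0.54) fell short of the threshold.

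The sizes depended on how arrays were scaled. Adipocyte markers were also higher in overload under vehicle, by a median of 0.35, and lower under GW4869, by 0.37. Single markers ran from -0.16 to 1.35 under vehicle, where 6 of 15 were at least 1.5-fold higher and 0 lower. Under GW4869 they ran from -0.86 to 0.01, with 0 higher and 1 lower. For GW4869 in overload 0 were higher and 7 lower. The medians therefore do not stand for every marker. With the median marker difference set to 0, Irs1, Pik3r1, Tbc1d4 and Slc2a4 were 2.33, 1.20, 1.06 and 1.04 higher in overload under vehicle. Under GW4869 Irs1, Irs3 and Pik3r1 had -0.65, -1.19 and -1.17, while Slc2a4 (-0.52) and Tbc1d4 (-0.26) no longer passed 1.5-fold. Centring each array on the median level of the adipocyte markers, which is the level of Lipe alone on all 4 arrays, took away 0.91 under vehicle. It left Irs1 (1.77) and Pik3r1 (0.64) as the genes at least 1.5-fold higher, beside 2.74% of all genes, and Akt1 (-0.82) as lower, beside 54.3%. The shape with Veh-Sham and GW-SA as the low pair held for Irs1, Irs3, Pik3r1, Tbc1d4 and Slc2a4 under each of the 5 other scalings tried. With each array centred on the median of all genes, Irs2 had it too, its overload difference under GW4869 then being -0.007. Over all genes the split of higher against lower also turned with the scaling. For overload under vehicle it was 15.3% against 23.8% after trend removal and 14% against 25.5% with the median adipocyte gene at 0, where 6 of the 10 genes were higher and 0 lower in both cases. For overload under GW4869 the latter gave 30.8% against 6.05%, with 1 of the 10 higher and 3 lower. The shared shape was that of 30.4% of all genes with each array centred on the median of all genes. It was that of 18.9% with the median gene difference set to 0 and 17.2% after trend removal. The share was 7.71% with the median adipocyte gene at 0 and 2.47% with centring on adipocyte marker levels.

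**Figure D4:**
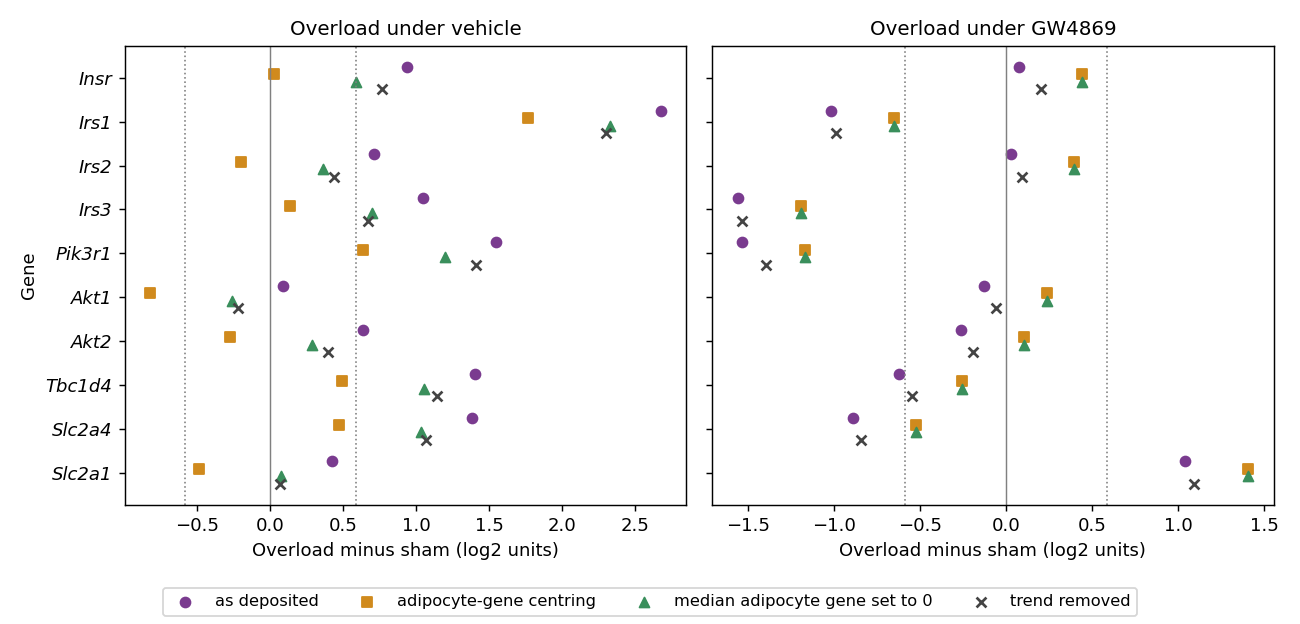
Overload minus sham in log2 units for the 10 genes, under vehicle (left) and under GW4869 (right), with values as deposited and under 3 other scalings. Dotted lines mark 1.5-fold; Irs1 and Pik3r1 stay past it on both sides under all 4, and Slc2a1 stays past it under GW4869.

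A wider list of 74 other genes of the route was read beside these 10. Of them 67 were analysed here and 58 lay above the floor. Overload under vehicle had 37.9% of the 58 higher and 12.1% lower, against 30.2% and 16.9% of all genes, with medians of 0.40 and 0.26. Overload under GW4869 had 6.9% higher and 13.8% lower, against 13.4% and 15.3% of all genes. GW4869 in overload had 6.9% higher and 29.3% lower, against 18.4% and 18.8% of all genes. GW4869 in sham had 24.1% higher and 17.2% lower, against 28.9% and 14.4%, led among the vesicle genes by Rab8a (1.33). Higher under vehicle and lower under GW4869 were 4 of the 58, Igf1, Ralgapa2, Rhoq and Mlxipl, against 5.53% of all genes. The opposite combination was met by 0 of the 58, against 4.2%.

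Among the vesicle genes, 7 of 17 including Tbc1d4 were higher in overload under vehicle and 2 were lower (41.2% and 11.8%), against 30.2% and 16.9% of all genes. Ralgapa2, part of the complex that restrains the GTPase RalA, read 9.25 in Veh-Sham, 11.12 in Veh-SA, 10.39 in GW-Sham and 9.53 in GW-SA, close to the shape of Tbc1d4. Rhoq, the GTPase TC10, differed by 0.87 under vehicle and -0.59 under GW4869. Of the genes for fusion of GLUT4 vesicles, Vamp2 had 0.30 and -0.11 and Snap23 had 0.10 and -0.42. Sort1, the sorting receptor sortilin, had 0.29 and -0.37. Stx4a, the plasma membrane partner of Vamp2, differed by 0.78 under vehicle and -0.11 under GW4869, and Stxbp3, which binds syntaxin 4, by 0.63 and 0.12.

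Among adaptors, Sh2b2, also called APS, was 1.76 higher with overload in vehicle mice, against -0.29 in GW4869 mice. Grb2 and Shc1, which lead to the MAP kinase branch, had 0.44 and 0.62 under vehicle and 0.26 and -0.29 under GW4869. Of 8 brakes above the floor 2 were higher in overload under vehicle, Inppl1 (1.05) and Grb10 (0.77), and 1 lower, Phlpp1 (-1.37). These are 25% and 12.5%, against 30.2% and 16.9% of all genes. Under GW4869 Ptpn1, the phosphatase PTP1B that acts on the insulin receptor, was 1.24 higher and Grb14, an adaptor that inhibits the receptor, had -1.72. Ptpn1 read 9.25 in Veh-Sham, 9.55 in Veh-SA, 10.01 in GW-Sham and 11.25 in GW-SA, the same order as Slc2a1 and as the median of the macrophage markers, an order that 3 of the 7 single markers had. Socs3, which inhibits cytokine and insulin signalling, read 6.52 in GW-SA and 2.54 to 3.26 elsewhere, so its mean lay under the floor and it was left out of the counts.

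Among targets and effectors, 5 of 9 were higher in overload under vehicle and 1 was lower (55.6% and 11.1%), against 30.2% and 16.9% of all genes. Pde3b, the phosphodiesterase through which insulin lowers cAMP, was 1.07 higher, and Hk2, Gys1 and Mlxipl, which act on or respond to glucose inside the cell, were 0.94, 0.93 and 0.96 higher. Under GW4869 Foxo1, the transcription factor that Akt keeps out of the nucleus, had -1.53 and Mlxipl, also called ChREBP, had -1.24, while Pde3b, Hk2 and Gys1 had -0.17, 0.08 and -0.30.

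Among the other transporters, Slc2a3 and Slc2a5, transporters that sperm also carry, read 11.21 and 10.63 in Veh-Sham, where sperm markers were high. On the other arrays Slc2a3 lay at 6.93 to 7.92 and Slc2a5 at 2.45 to 3.42, under the floor. Hk1, a hexokinase with a sperm form that is also on the sperm and testis list, read 14.37 in Veh-Sham and 9.87 to 10.87 elsewhere. None of these 3 genes is among the 10. The lowest value was in Veh-Sham for Insr, Irs1, Irs2, Akt1, Tbc1d4 and Slc2a1. It was in GW-SA, where epididymal markers were high, for Irs3, Pik3r1, Akt2 and Slc2a4. The part of sperm or epididymal RNA in these low values was not tested. Slc2a9, a urate and fructose carrier, read 6.05 in Veh-SA and 4.39 to 4.88 elsewhere, close to the floor. Slc2a8 was under the floor on every array, as were Irs4 and Insrr.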

How the data were processed

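Epididymal fat RNA was measured on 4 arrays, 1 per group, grouped by sample title. The deposited values are log2 expression for each probe set. Per the submitters' processing notes, the authors used Partek and RMA, and the sources used here give no version, setting or genome build. The platform annotation named 1 gene for 19572 probe sets, and the probe set with the highest mean was kept for each of 19505 genes. The floor is the 40th percentile of gene means. Differences of log2 values, counts at 1.5-fold, medians and percentile ranks were computed with pandas 2.3.3, and lowess trends (fraction 0.3) with statsmodels 0.14.6. The counting step was tested on simulated data. Genes and lists were chosen with earlier results of these data known. The text names all 10 genes, paralogs listed by symbol (Igf1r, Pik3r2, Pik3r3, Irs4, Tbc1d1, Slc2a3, Slc2a5 and Slc2a8), and some of the pathway genes at least 1.5-fold apart. The last were not always the largest differences in a role: Stx4a, Stxbp3, Hk2 and Gys1 are named, and Myo5a and Aspscr1 are not described. Vamp2, Snap23, Sort1, Grb2, Socs3 and Acta1 were named after their values were seen. Other scalings, a fold of 2, other floors and averaged probe sets were tried. Protein sequences were not used here.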

Additional observations from a re-analysis of the deposited data

Results flagged for a closer look

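For 5 genes overload went with a higher value under vehicle and a lower value under GW4869, each by at least 1.5-fold. The overload difference under GW4869 minus that under vehicle was -3.69 for Irs1, -3.08 for Pik3r1, -2.61 for Irs3, -2.28 for Slc2a4 and -2.03 for Tbc1d4. With 1 array per group these differences between differences were not tested.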

How the results depend on the processing

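Over the 5 other scalings, 180 of 200 differences of the 10 genes moved by less than 1.5-fold and 20 moved further, the latter with centring on the median level of adipocyte markers. The sign changed in 20, of which 10 came from that centring and 3 were past 1.5-fold as deposited: Irs2 and Akt2 then had -0.20 and -0.28 for overload under vehicle and Irs2 had 0.17 for GW4869 in overload. That centring also changed the counts at 1.5-fold, to 2 higher and 1 lower for overload under vehicle, 3 lower for overload under GW4869, 3 higher and 1 lower for GW4869 in sham, 3 lower for GW4869 in overload, and 2 genes higher under vehicle and lower under GW4869. Setting the median adipocyte difference to 0, chosen after seeing the data, gave 3 lower for overload under GW4869, 4 lower for GW4869 in overload and 3 with the combined pattern. A fold of 2 gave 5 higher for overload under vehicle, 3 lower under GW4869, 4 higher for GW4869 in sham, 1 higher for GW4869 in overload and 3 with the combined pattern. Over all genes, GW4869 in sham gave 14.6% higher and 21.5% lower after trend removal and 16.1% and 20.2% with the median gene at 0. Trend removal, and setting the median gene to 0 (also chosen after seeing the data), each made 1 gene, Akt2, lower for GW4869 in sham, and all-gene centring left 1 higher for GW4869 in overload. Averaging probe sets, a floor at the 20th percentile and values under the floor set to it could not change the 10 genes, which have 1 probe set each and lie above the floor on all 4 arrays. Of the counts over other pathway genes 21 of 72, and of those over all genes 25 of 72, moved by over 1.5 times. With centring on adipocyte levels 2.74% of genes were higher and 54.3% lower for overload under vehicle and 60.6% higher and 2.2% lower for GW4869 in overload. No array could be left out, since each group has 1. No paired analysis was possible because each group has 1 array and the labels give no replicate numbers. Signal near the negative controls limits the low readings of Irs1 and Irs3. Among the other pathway genes named, signal near antigenomic background limits Pik3r2, Pik3cd, Grb14 and Slc2a9. Others lay under the 95th percentile of negative controls on some or all arrays, among them Tbc1d1, Sh2b2, Mlst8, Igf1r, Hk2 and Slc2a3.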

Other observations

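The genes closest in shape to 3 of the 10 were found by the root mean square distance of levels centred on each gene's mean over the 4 arrays, among genes above the floor on every array. Closest to Slc2a4 were Fntb, a farnesyltransferase subunit (distance 0.034 log2 units), Bcat2, the mitochondrial branched-chain aminotransferase (0.053), and Srpx (0.058). Bcat2 read 10.52 in Veh-Sham, 11.94 in Veh-SA, 11.35 in GW-Sham and 10.38 in GW-SA. Closest to Irs1 were Nabp1 (0.14), Hint2 (0.17) and 1190005I06Rik (0.23), at larger distances. Closest to Slc2a1 were Slc6a9, a glycine transporter (0.042), Prrg3 (0.067) and Stat2, which relays interferon signals (0.072). Stat2 read 7.73 in Veh-Sham, 8.09 in Veh-SA, 8.67 in GW-Sham and 9.59 in GW-SA. With 4 arrays and 11703 genes above the floor, a small distance is easily met.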
